A study of Mus musculus with 9 samples.

Results

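Collagen VI is a network-forming collagen of the matrix around muscle fibres and many other cells. Its main form in muscle is built from 3 chains, which are encoded by Col6a1, Col6a2 and Col6a3. The probe sets of these chains were those whose platform annotation gave exactly 1 symbol, and that symbol was Col6a1, Col6a2 or Col6a3. They numbered 120 of the 316997 probe sets with 1 symbol, and the 3 genes stood among 12646 genes tested. The chains were chosen with their gene values and probe set values in these 9 arrays known, and in that sense selected on them. They are therefore given here as a description. Intervals, calls and the settings in which a call held are printed for the chains and their probe sets as part of that description. None of these is a test of the chains.

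The measurements came from C2C12, an established line of mouse myoblasts that proliferate in serum and can be made to fuse into myotubes. All cells were kept in DMEM with 10% fetal bovine serum, received an siRNA and were harvested 48 h later, and 100 ng of total RNA per sample was labelled for Affymetrix exon arrays. The groups were Cugbp1 siRNA, Mbnl1 siRNA and control siRNA, with 3 arrays each. Cugbp1 is now named Celf1. The CELF1 and MBNL1 proteins bind RNA and act on the splicing and decay of mRNAs, and their balance is upset in myotonic dystrophy. The 3 groups share the line, the medium and the transfection, and an untransfected group is not analysed here. The labels do not say whether the replicates were separate cultures, so a p-value here reflects array-to-array spread only, and this spread may be technical. Both comparisons with control use the same 3 control arrays.

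The alpha1, alpha2 and alpha3 chains of collagen VI fold into a heterotrimer inside the cell, and the trimers pair into dimers and tetramers before secretion. Outside the cell the tetramers join into beaded microfilaments that link the basement membrane of the muscle fibre with the interstitial matrix. The chains alpha1 and alpha2 are short and alpha3 is long, with a row of von Willebrand factor A domains at its amino end whose exons are alternatively spliced, and a carboxyl end that is cleaved off as endotrophin. Mutations of COL6A1, COL6A2 and COL6A3 cause Ullrich congenital muscular dystrophy and Bethlem myopathy.

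In the RefSeq gene table (assembly GRCm38.p6), Col6a2 and Col6a1 are direct neighbours on chromosome 10, while Col6a3 lies on chromosome 1. All 3 are on the minus strand. Their promoters are shown because Col6a1 and Col6a2 were both higher than control after either siRNA, while Col6a3 lay clear of the controls after Mbnl1 siRNA only. Each sequence is the stretch of 250 bases before the annotated start, from RefSeq GRCm38.p6, written 5′ to 3′ on the strand of the gene: chr10:76726045-76726294 for Col6a1, chr10:76623405-76623654 for the first of the 2 starts listed for Col6a2, and chr1:90843972-90844221 for Col6a3. Capitals mark every match, on either strand, to GGGCGG (the GC box) or TATAAA (the TATA box), to CCAAT (the CCAAT box), and to TGANTCA (the AP-1 site). Matches to GGGAGG are in capitals too, and that motif was added after the sequences had been read.
Col6a1: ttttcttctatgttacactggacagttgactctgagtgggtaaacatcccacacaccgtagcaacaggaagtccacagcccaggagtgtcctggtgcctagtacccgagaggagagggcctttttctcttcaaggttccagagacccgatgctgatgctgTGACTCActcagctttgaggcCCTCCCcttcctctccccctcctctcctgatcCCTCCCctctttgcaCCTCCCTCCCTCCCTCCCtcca
Col6a2: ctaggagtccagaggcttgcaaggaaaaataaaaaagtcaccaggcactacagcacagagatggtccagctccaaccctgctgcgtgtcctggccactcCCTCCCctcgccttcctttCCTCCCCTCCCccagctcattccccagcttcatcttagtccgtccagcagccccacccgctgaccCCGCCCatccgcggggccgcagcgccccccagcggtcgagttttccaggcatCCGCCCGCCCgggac
Col6a3: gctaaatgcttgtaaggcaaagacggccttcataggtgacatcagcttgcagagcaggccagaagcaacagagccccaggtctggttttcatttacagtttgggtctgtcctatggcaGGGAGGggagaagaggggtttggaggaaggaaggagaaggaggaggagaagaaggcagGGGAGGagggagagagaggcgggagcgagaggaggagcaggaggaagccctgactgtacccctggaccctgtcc

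The Col6a1 window held 1 AP-1 match and 6 matches to GGGAGG, which were counted with overlaps, and its GC content was 56%. The Col6a2 window held 3 GC boxes and 3 matches to GGGAGG, with a GC content of 64.4%. The window of the other Col6a2 start, chr10:76623631-76623880, is not printed. It held 1 GC box and 1 match to GGGAGG, with a GC content of 59.2%. The 2 Col6a2 starts were numbered by coordinate. On the minus strand this other start lies upstream, so most of the printed Col6a2 window lies downstream of it. The Col6a3 window held 2 matches to GGGAGG and no GC box, with a GC content of 57.2%. None of the 3 printed windows held TATAAA or CCAAT. Over the 32851 promoters of the same length in the table, 38.0% held GGGAGG, 32.7% a GC box, 33.8% CCAAT, 12.4% TATAAA and 6.75% the AP-1 site, so GGGAGG, the motif present in all 3 windows, is also a common one. A match is a stretch of letters and was not measured as a bound site.

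The labelled cell type and the targeted genes were checked first. The myoblast markers Myod1, Myf5, Des and Cdh15 averaged 9.61 to 11.88 on the log2 intensity scale on control arrays. The other listed myoblast markers averaged 10.55 (Itga7), 9.26 (Ncam1) and 7.71 (Pax7, close to the filter on weak signal at 7.0). Celf1 differed from control by -1.46 ± 0.06 after Cugbp1 siRNA (log2, SE; limma adjusted p = 9.01e-07) and by -0.07 after Mbnl1 siRNA (adjusted p = 0.345). Mbnl1 stood at 0.05 after Cugbp1 siRNA (limma adjusted p = 0.471) and at -1.35 ± 0.05 after Mbnl1 siRNA (adjusted p = 3.97e-07). All 9 median intensities lay between 42.3 and 43.8. The median log2 difference from control over all genes was 0.05 after Cugbp1 siRNA and 0.04 after Mbnl1 siRNA, and it was -0.05 and -0.07 when each array was centred on the median of its kept probe sets. The size of every difference from control therefore depends on the scaling by about that shift.

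Of the 120 probe sets, 110 passed the filter on weak signal (a mean log2 intensity of at least 7.0 over the 9 arrays). They were 34 of 35 for Col6a1, 28 of 34 for Col6a2 and 48 of 51 for Col6a3. The 10 that did not pass had mean log2 intensities of 5.38 to 6.61. The gene value of a chain on an array is the median polish of its kept probe sets, on the log2 intensity scale, and gene values are compared here between groups and never between chains.

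Col6a1, the alpha1 chain, was higher after either siRNA. Its gene value was 9.32, 9.35 and 9.34 on the Cugbp1 siRNA arrays, 9.26, 9.30 and 9.37 on the Mbnl1 siRNA arrays and 8.91, 8.96 and 8.97 on the control arrays. Every siRNA array lay above every control array. The difference from control was 0.39 ± 0.04 after Cugbp1 siRNA (log2, SE), which is 1.31-fold with a 95% interval of 1.22 to 1.40. After Mbnl1 siRNA it was 0.36 ± 0.04, or 1.29-fold with an interval of 1.2 to 1.37. The siRNAs differed from each other by 0.03 ± 0.04 (Cugbp1 minus Mbnl1, 95% interval -0.07 to 0.12), and their arrays overlapped. In bulk RNA, a difference in RNA per cell and a difference in the share of cells that make the RNA cannot be told apart.

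Col6a2, the alpha2 chain, was higher after either siRNA, by a smaller amount than Col6a1 with the median polish as gene value. With the mean of the probe sets as gene value, Col6a1 and Col6a2 were higher by nearly equal amounts after Cugbp1 siRNA. By median polish Col6a2 read 8.60, 8.59 and 8.56 after Cugbp1 siRNA, 8.53, 8.52 and 8.66 after Mbnl1 siRNA and 8.26, 8.25 and 8.39 on the control arrays. Again no siRNA array reached down to a control array. The difference from control was 0.28 ± 0.05 after Cugbp1 siRNA (1.22-fold, 95% interval 1.12 to 1.32) and 0.27 ± 0.05 after Mbnl1 siRNA (1.2-fold, 1.11 to 1.31). Between the siRNAs it was 0.02 ± 0.05 with an interval of -0.11 to 0.14, and the arrays overlapped.

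Col6a3, the alpha3 chain, was high after Mbnl1 siRNA and spread widely after Cugbp1 siRNA. It read 9.46, 9.68 and 9.79 after Cugbp1 siRNA, 9.77, 9.94 and 9.94 after Mbnl1 siRNA and 9.59, 9.60 and 9.56 on the control arrays. The Cugbp1 siRNA arrays straddled the controls, with replicate 1 below all 3 of them and replicates 2 and 3 above. The SD within the group was 0.17 after Cugbp1 siRNA, 0.10 after Mbnl1 siRNA and 0.02 on the control arrays. The difference from control was 0.06 ± 0.08 after Cugbp1 siRNA (1.04-fold, 95% interval 0.924 to 1.18), and it was -0.01 without replicate 3 of that group and 0.15 without replicate 1. After Mbnl1 siRNA it was 0.30 ± 0.08 (1.23-fold, 1.09 to 1.39), and every Mbnl1 siRNA array lay above every control. Cugbp1 siRNA minus Mbnl1 siRNA was -0.24 ± 0.08 (interval -0.41 to -0.06), with overlapping arrays, since replicate 3 after Cugbp1 siRNA (9.79) exceeded replicate 1 after Mbnl1 siRNA (9.77).

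**Figure D1:**
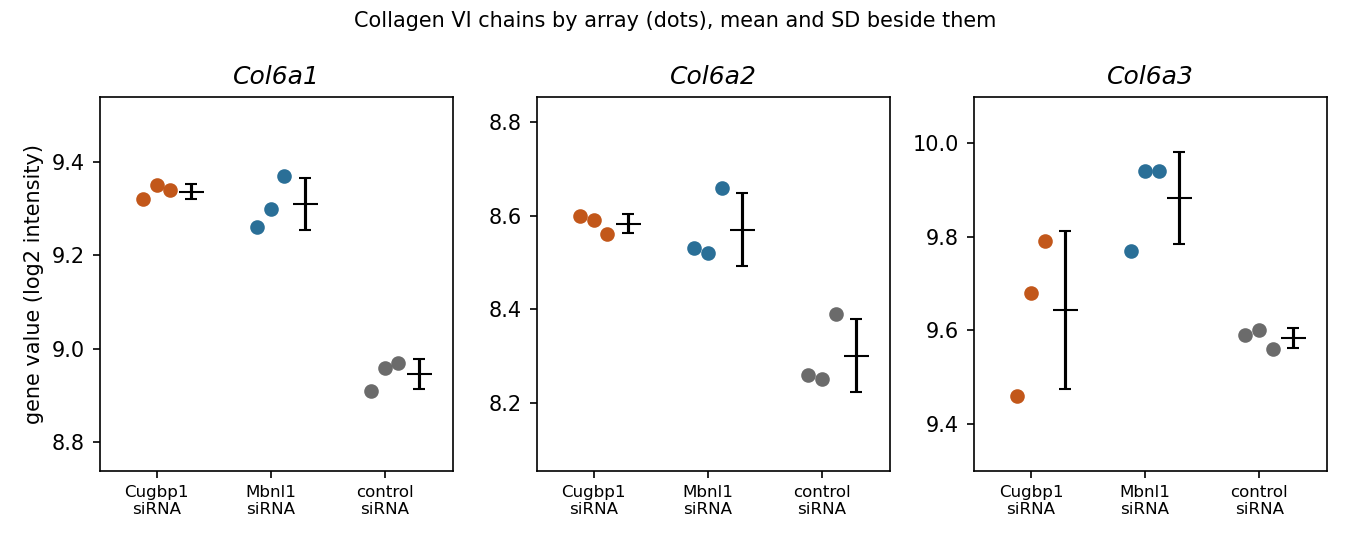
Gene value (log2 intensity) of Col6a1, Col6a2 and Col6a3 on each array, one panel per chain with vertical axes of equal span; dots are arrays, and the bar beside them is the group mean with its SD (n = 3). Col6a1 and Col6a2 lie above control after both siRNAs, while the Cugbp1 siRNA arrays of Col6a3 run from 9.46 to 9.79 around the controls at 9.56 to 9.60.

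At an adjusted p under 0.05 in limma over all 12646 genes, 2 of the 3 chains stood among the genes called higher after Cugbp1 siRNA, against 26% of all genes, and all 3 after Mbnl1 siRNA, against 26.9%. None was called between the siRNAs, where 9.34% of all genes were called in either direction. Arrays did not overlap with control for 2 of 3 chains after Cugbp1 siRNA and for 3 of 3 after Mbnl1 siRNA, against 48.8% and 57.5% of all genes in either direction. Since the chains were chosen with these values known, nothing is read from the counts. With each array centred on the median of its kept probe sets, an alternative added after the data were seen, the differences from control after Cugbp1 siRNA were 0.27 for Col6a1, 0.17 for Col6a2 and -0.05 for Col6a3, and those after Mbnl1 siRNA were 0.23, 0.15 and 0.18 in the same order of chains. Under that scaling Col6a2 and Col6a3 were no longer among the genes called after Mbnl1 siRNA. The calls over all genes split into 3293 higher and 1600 lower after Cugbp1 siRNA as deposited, into 1279 and 3341 with that centring, and into 4398 and 1230 with centring on the median of all probe sets. After Mbnl1 siRNA the splits were 3397 and 1848, 1639 and 4098, and 4232 and 1433. Lower calls thus outnumbered higher ones after either siRNA with centring on the kept probe sets. List counts given below under that centring stand beside these splits, and not beside the shares as deposited.

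The balance of the chains is free of that scaling, because it is taken within an array. It does depend on how the probe sets are summarised into a gene value, here by median polish. The log2 ratio of Col6a3 to Col6a1, set to an average of 0 on the control arrays, was -0.49, -0.30 and -0.18 after Cugbp1 siRNA, -0.13, 0.00 and -0.07 after Mbnl1 siRNA and 0.04, 0.00 and -0.04 on the controls. The Cugbp1 siRNA arrays were the lowest, at -0.33 ± 0.16 (SD, n = 3), against -0.06 ± 0.06 after Mbnl1 siRNA. The ratio of Col6a3 to Col6a2 was -0.22 ± 0.18 after Cugbp1 siRNA, 0.03 ± 0.09 after Mbnl1 siRNA and spread with an SD of 0.10 on the controls. The ratio of Col6a1 to Col6a2 was 0.10 ± 0.02 and 0.10 ± 0.04 after the siRNAs, with an SD of 0.07 on the controls. That shift after Cugbp1 siRNA was not seen with the mean of the probe sets as gene value, where both chains differed from control by nearly equal amounts. Over the 9 arrays, which share the groups, the gene values correlated with r = 0.957 for Col6a1 and Col6a2, 0.533 for Col6a1 and Col6a3 and 0.458 for Col6a2 and Col6a3, given as a description.

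The Cugbp1 siRNA arrays also differed from each other over all genes. On a first principal component over all gene values, which held 54.2% of the variance, they stood at 2.16, 5.23 and 9.49, in the same order as their Col6a3 values, while the Mbnl1 siRNA arrays stood at 8.73, 9.05 and 11.2 and the controls at -16.7 to -14.5. The part of that spread in the Col6a3 result was not tested.

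Single probe sets mostly followed their chain. The level of a probe set was above control after Cugbp1 siRNA for 30 of 34 probe sets of Col6a1, 21 of 28 of Col6a2 and 28 of 48 of Col6a3. After Mbnl1 siRNA it was above control for 27 of 34, 19 of 28 and 45 of 48. Col6a3 therefore had nearly all its probe sets up after Mbnl1 siRNA and an almost even split after Cugbp1 siRNA. Between the siRNAs, 45 of 48 Col6a3 probe sets were lower after Cugbp1 siRNA than after Mbnl1 siRNA, and 3 were higher. The probe sets of one chain measure the same RNA on the same arrays and are not replicates.

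**Figure D2:**
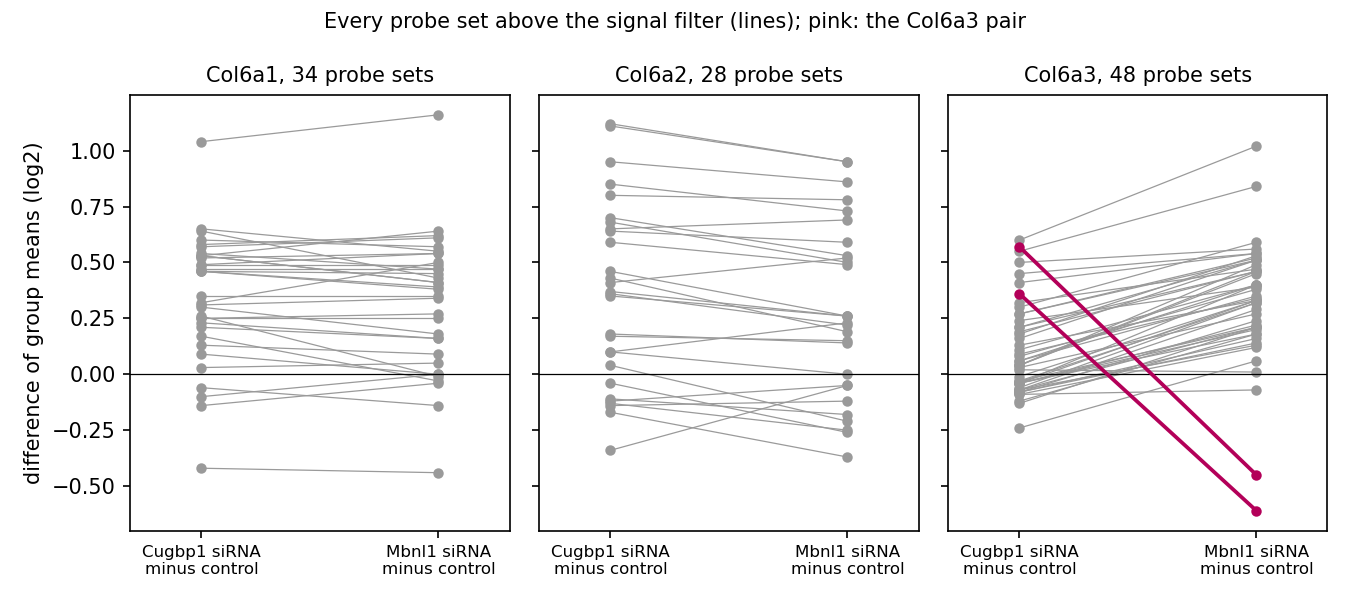
Difference of group means of the log2 intensity from control for every kept probe set of Col6a1 (34), Col6a2 (28) and Col6a3 (48), after Cugbp1 siRNA on the left and after Mbnl1 siRNA on the right of each panel, with a line joining the 2 values of a probe set. Probe sets 5201909 and 5243881 of Col6a3 are drawn in pink: both are above control on the left, as are 26 of the other 46, and below it on the right, where 45 of the other 46 are above.

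The departure of a probe set from its chain was measured as its log2 intensity minus the gene value of the same array. The clearest departures between the siRNAs were those of Col6a3 probe sets 5201909 and 5243881. Probe set 5201909 read 11.66, 11.51 and 11.57 after Cugbp1 siRNA, 10.54, 10.64 and 10.65 after Mbnl1 siRNA and 11.12, 11.23 and 11.30 on the control arrays. The 3 groups did not overlap at any point, with Cugbp1 siRNA highest and Mbnl1 siRNA lowest. Its level differed from control by 0.36 after Cugbp1 siRNA and by -0.61 after Mbnl1 siRNA, although the gene value was up by 0.30 in the second case. Relative to the gene, its difference from control (log2, SE) was 0.30 ± 0.10 after Cugbp1 siRNA, and with Mbnl1 siRNA it was -0.91 ± 0.10, a ratio of 0.533. Cugbp1 siRNA minus Mbnl1 siRNA was 1.21 ± 0.10, which is 2.31-fold with a 95% interval of 1.98 to 2.69.

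Probe set 5243881 showed the same order. It read 8.69, 8.82 and 9.09 after Cugbp1 siRNA, 7.48, 8.01 and 8.04 after Mbnl1 siRNA and 8.32, 8.34 and 8.23 on the control arrays, again with no overlap between any of the groups. Relative to the gene it differed from control by 0.51 ± 0.13 after Cugbp1 siRNA and by -0.75 ± 0.13 after Mbnl1 siRNA, a ratio of 0.594. Cugbp1 siRNA minus Mbnl1 siRNA was 1.26 ± 0.13, or 2.40-fold with an interval of 1.97 to 2.92. The departures of the pair correlated with r = 0.93 over the 9 arrays, which share the groups and the gene value that was subtracted.

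The other 46 Col6a3 probe sets stayed close to the gene value in that comparison. Their departures ran from -0.21 to 0.25 between the siRNAs, with a median of -0.04, so the smaller of the pair, at 1.21, lay far outside their range. Their levels ran from -0.45 to 0.01. Against control the other probe sets departed by -0.30 to 0.54 after Cugbp1 siRNA and by -0.36 to 0.72 after Mbnl1 siRNA. The departures of the pair after Cugbp1 siRNA, 0.30 for 5201909 and 0.51 for 5243881, lay within that range, and neither was called. Leaving out 1 array at a time gave 0.17 to 0.38 and 0.47 to 0.55 for them. After Mbnl1 siRNA the pair, at -0.91 and -0.75, lay below the range of the others, and both were called. By size, the departures of 5243881 and 5201909 between the siRNAs ranked 14 and 18 among 158713 probe sets of 11374 genes. Both were among the 44 probe sets called between the siRNAs in limma at an adjusted p under 0.05, which is 0.0277% of those tested. These calls depended on the filter: without it limma called 0 probe sets between the siRNAs, and with a filter at the median it called 15, which held 5201909 and not 5243881, although the departures of the pair were 1.21 and 1.27 in both settings. Leaving out 1 array at a time, 5201909 stayed called in 9 of 9 settings and 5243881 in 5 of 9, and the call of 5243881 was lost without any 1 of the Cugbp1 siRNA arrays or without Mbnl1 siRNA replicate 2. The 44 lay in 31 genes, 6 of which had at least 2 calls. The pair was chosen with these values known, so its place in this ranking is a description. Without the pair, the Col6a3 gene value differed from control by 0.06 after Cugbp1 siRNA and 0.31 after Mbnl1 siRNA, nearly as with it. The array annotation used here does not give the exon or the position of a probe set, so which part of the Col6a3 mRNA the pair covers was not determined.

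**Figure D3:**
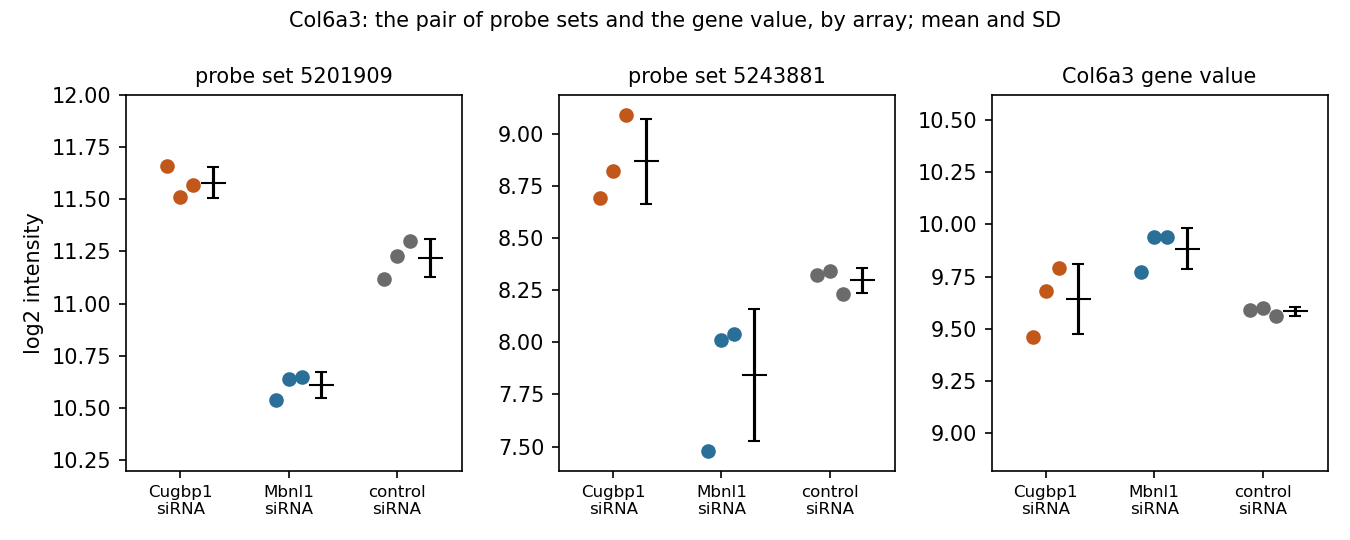
Log2 intensity of Col6a3 probe sets 5201909 and 5243881 and the Col6a3 gene value on each array, on axes of equal span; dots are arrays, and the bar beside them is the group mean with its SD (n = 3). In both probe sets the order is Cugbp1 siRNA, control siRNA, Mbnl1 siRNA from high to low, while in the gene value the Mbnl1 siRNA arrays are the highest group.

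Other probe sets of the chains departed after both siRNAs in the same direction. In Col6a3, probe set 5421689 stood at 0.54 ± 0.16 after Cugbp1 siRNA and 0.72 ± 0.16 after Mbnl1 siRNA relative to the gene, and 5193243 at 0.49 ± 0.12 and 0.54 ± 0.12. Between the siRNAs they differed by -0.19 ± 0.16 for 5421689 (95% interval -0.53 to 0.15) and by -0.04 ± 0.12 for 5193243, and neither was called. Their levels were also the most variable after Cugbp1 siRNA, at 7.96, 8.29 and 8.85 for 5421689, against 8.61, 8.85 and 8.93 after Mbnl1 siRNA and 7.72, 7.95 and 7.64 on control arrays.

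In Col6a1, probe set 5248741 went against its gene. It read 9.12, 9.21 and 9.21 after Cugbp1 siRNA, 9.09, 9.07 and 9.32 after Mbnl1 siRNA and 9.83, 9.30 and 9.66 on control arrays, so that its level differed from control by -0.42 and -0.44 while the gene value was higher. Relative to the gene it was at -0.81 ± 0.13 and -0.80 ± 0.13. Its control arrays were far apart, with an SD of 0.27 in level. Probe set 4864393 of the same gene went the other way, at 8.81, 8.61 and 8.68 after Cugbp1 siRNA, 8.73, 8.71 and 9.03 after Mbnl1 siRNA and 7.77, 7.77 and 7.44 on control arrays. Relative to the gene it was at 0.65 ± 0.13 and 0.80 ± 0.13. Probe set 4978445 read between 9.97 and 10.29 on all 9 arrays while the gene value was higher, which gave it departures of -0.44 ± 0.07 and -0.51 ± 0.07. Probe set 4670160, the dimmest kept one at a mean of 7.29, departed by -0.53 ± 0.17 and -0.40 ± 0.17.

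In Col6a2, the largest departures were upward. Probe set 4985094 read 8.29, 8.65 and 8.50 after Cugbp1 siRNA, 8.18, 8.33 and 8.42 after Mbnl1 siRNA and 7.40, 7.25 and 7.44 on control arrays, and relative to the gene it was at 0.83 ± 0.11 and 0.68 ± 0.11. Probe sets 5211361 and 5510219 were at 0.83 ± 0.20 and 0.67 ± 0.15 after Cugbp1 siRNA, and at 0.68 ± 0.20 and 0.59 ± 0.15 after Mbnl1 siRNA. For 5211361 the control arrays spread from 8.15 to 9.0. Probe set 4321804 was at -0.45 ± 0.15 after Cugbp1 siRNA and -0.64 ± 0.15 after Mbnl1 siRNA. None of the named probe sets of Col6a1 and Col6a2 differed between the siRNAs by more than 0.19.

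By limma at an adjusted p under 0.05 over all probe sets, 4 of 34 Col6a1, 8 of 28 Col6a2 and 1 of 48 Col6a3 probe sets were called to depart from their gene after Cugbp1 siRNA, against 3.75% of all probe sets. After Mbnl1 siRNA these were 6 of 34, 8 of 28 and 6 of 48, against 6.98%. Col6a2 had the largest share of such probe sets in both comparisons. Nothing is read from these counts, for the reason given above.

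The genes that act on collagen VI or bind it were not used to choose the chains, and they were tested with limma over all 12646 genes. Their lists were drawn up with earlier results of these data known. The p-values and counts of these lists are therefore not independent of the data. The long chains that can stand in for alpha3, encoded by Col6a4, Col6a5 and Col6a6, were lower or did not pass the test. Col6a4 fell by 0.29 after Cugbp1 siRNA (adjusted p = 0.00982) and fell by 0.33 after Mbnl1 siRNA (adjusted p = 0.00469). It read 8.0, 8.10 and 7.93 after Cugbp1 siRNA, 8.11, 7.89 and 7.92 after Mbnl1 siRNA and 8.28, 8.23 and 8.38 on control arrays. Col6a5 fell by 0.26 (adjusted p = 0.0127) and fell by 0.33 (adjusted p = 0.00397). Col6a6 was at 0.06 (adjusted p = 0.505) and -0.02 (adjusted p = 0.805). The signals were weak: only 16 of 42, 5 of 29 and 13 of 39 probe sets of these genes passed the filter, and the direction of Col6a4 and Col6a5 was kept in each of the 9 settings that left out 1 array and in all 4 scalings.

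Enzymes, chaperones and export factors of collagen biosynthesis were measured for 18 of 20 genes on the list. After Cugbp1 siRNA 9 rose and none fell, with a median of 0.15 over the list, against 26% of all genes called higher, 12.7% called lower and a median of 0.05. After Mbnl1 siRNA 9 rose and none fell, again with a median of 0.15, against 26.9%, 14.6% and 0.04. Fkbp14, a prolyl isomerase of the endoplasmic reticulum that acts on collagens, rose by 0.47 ± 0.04 after Cugbp1 siRNA (adjusted p = 0.000104) and by 0.47 after Mbnl1 siRNA (adjusted p = 4.46e-05). Plod2, a lysyl hydroxylase that prepares collagen for cross-linking, rose by 0.30 (adjusted p = 0.000674) and by 0.51 (adjusted p = 2.54e-05). P4ha1, the catalytic subunit of a collagen prolyl hydroxylase, and Crtap, a partner of a prolyl hydroxylase, each rose by 0.26 after either siRNA.

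P3h2 and Plod2 were the members that passed the test of the difference between the siRNAs. P3h2, another prolyl hydroxylase, was at 0.22 after Cugbp1 siRNA (adjusted p = 0.0566) and rose by 0.64 after Mbnl1 siRNA (adjusted p = 0.000345). Mia3, which helps to load bulky collagens into transport carriers, rose by 0.24 (adjusted p = 0.0238) and by 0.45 (adjusted p = 0.00111), and the first of these calls was lost without control siRNA replicate 2 or Cugbp1 siRNA replicate 2 or 3. Cugbp1 siRNA minus Mbnl1 siRNA was -0.42 for P3h2 (adjusted p = 0.0103), -0.21 for Plod2 (adjusted p = 0.00956) and -0.20 for Mia3 (adjusted p = 0.114). The chaperone genes Serpinh1 and P4hb were at 0.01 and 0.01 after Cugbp1 siRNA and at 0.02 and -0.03 after Mbnl1 siRNA, and did not pass the test. Centred on the kept probe sets, where most calls over all genes were lower, the list had 3 higher and 0 lower after Cugbp1 siRNA. After Mbnl1 siRNA it had 6 higher and 1 lower. Crtap and, after Cugbp1 siRNA, Mia3 no longer passed. Leaving out 1 array at a time gave 5 to 10 higher after Cugbp1 siRNA and 9 to 11 after Mbnl1 siRNA.

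Receptors of collagen VI were measured for 10 of 12 genes. After Cugbp1 siRNA 2 rose and 3 fell, with a median of 0.00, against 26% of all genes called higher, 12.7% called lower and a median of 0.05. After Mbnl1 siRNA 5 rose and 1 fell, with a median of 0.15, against 26.9%, 14.6% and 0.04. Antxr1, a cell-surface receptor for collagen VI and for the cleaved end of alpha3, rose by 0.47 ± 0.05 after Cugbp1 siRNA (adjusted p = 0.000224) and by 0.49 after Mbnl1 siRNA (adjusted p = 8.6e-05). Its gene value averaged 9.73 ± 0.03 after Cugbp1 siRNA, 9.75 ± 0.05 after Mbnl1 siRNA and 9.26 ± 0.07 on control arrays (SD, n = 3 each). Antxr2, a related receptor, was at 0.15 after Cugbp1 siRNA (adjusted p = 0.0543) and rose by 0.23 after Mbnl1 siRNA (adjusted p = 0.00873).

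Among the other receptors, Ddr1, a collagen receptor tyrosine kinase, rose by 0.18 after either siRNA, and Itgav, the alphaV integrin subunit, was at 0.05 after Cugbp1 siRNA (adjusted p = 0.502) and rose by 0.25 after Mbnl1 siRNA (adjusted p = 0.00645). Itga11, a subunit of a collagen-binding integrin, fell by 0.29 after Cugbp1 siRNA (adjusted p = 0.0309) and fell by 0.38 after Mbnl1 siRNA (adjusted p = 0.00895). Only 6 of 32 probe sets of Itga11 passed the filter. Its call after Cugbp1 siRNA held in 5 of the 9 settings that left out 1 array and was lost without control siRNA replicate 2 or 3 or Cugbp1 siRNA replicate 2 or 3. Cspg4, the proteoglycan NG2, which binds collagen VI, fell by 0.25 after Cugbp1 siRNA (adjusted p = 0.00554) and was at -0.05 after Mbnl1 siRNA (adjusted p = 0.474). The difference between the siRNAs was -0.20 for Cspg4 (adjusted p = 0.0409) and -0.19 for Itgb1, the common beta subunit of the collagen-binding integrins (adjusted p = 0.0483), and these calls held in 2 and 1 of the 9 settings. Centred on the kept probe sets, where most calls over all genes were lower, 1 receptor rose and 4 fell after Cugbp1 siRNA. After Mbnl1 siRNA 2 rose and 3 fell, and Ddr1 and Antxr2 no longer passed.

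Matrix partners and processing enzymes had more calls between the siRNAs than the lists above. Of 13 measured genes out of 14, 1 rose and 2 fell after Cugbp1 siRNA, where 26% of all genes were called higher and 12.7% lower. After Mbnl1 siRNA 5 rose and 2 fell, where the shares over all genes were 26.9% and 14.6%. Between the siRNAs 5 of the 13 were lower after Cugbp1 siRNA, against 5.07% of all genes, and none was higher, against 4.27%. Dcn, the proteoglycan decorin that binds collagen VI, averaged 9.91 ± 0.06 after Cugbp1 siRNA, 10.38 ± 0.24 after Mbnl1 siRNA and 9.90 ± 0.03 on control arrays (SD, n = 3 each), and Cugbp1 siRNA minus Mbnl1 siRNA was -0.47 (adjusted p = 0.0135). Matn2, a matrilin that links collagen VI to other fibres, differed by -0.36 (adjusted p = 0.0327), with a call that held in 4 of the 9 settings that left out 1 array.

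Fn1, fibronectin, was at 13.02 ± 0.03 after Cugbp1 siRNA, 13.36 ± 0.04 after Mbnl1 siRNA and 13.15 ± 0.00 on control arrays, and the siRNAs differed by -0.34 (adjusted p = 0.0007). Bmp1, a proteinase that trims procollagens, differed by -0.32 (adjusted p = 0.000808) and Mmp14, a membrane-bound matrix metalloproteinase, by -0.32 (adjusted p = 0.0029). Mmp14 rose after both siRNAs, by 0.17 (adjusted p = 0.0193) and 0.49 (adjusted p = 7.45e-05), and the first of these calls was lost when arrays were centred on the kept probe sets and in 3 of the 9 settings that left out 1 array (without control siRNA replicate 1 or 2 or Cugbp1 siRNA replicate 2). Vwf, whose product shares the A domain with the chains, fell by 0.24 after either siRNA (adjusted p = 0.00573 and 0.00402), with 21 of 71 probe sets past the filter. Centred on the kept probe sets, where most calls against control over all genes were lower, the list had 0 higher and 6 lower after Cugbp1 siRNA. After Mbnl1 siRNA it had 4 higher and 2 lower, while the 5 lower between the siRNAs remained 5.

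**Figure D4:**
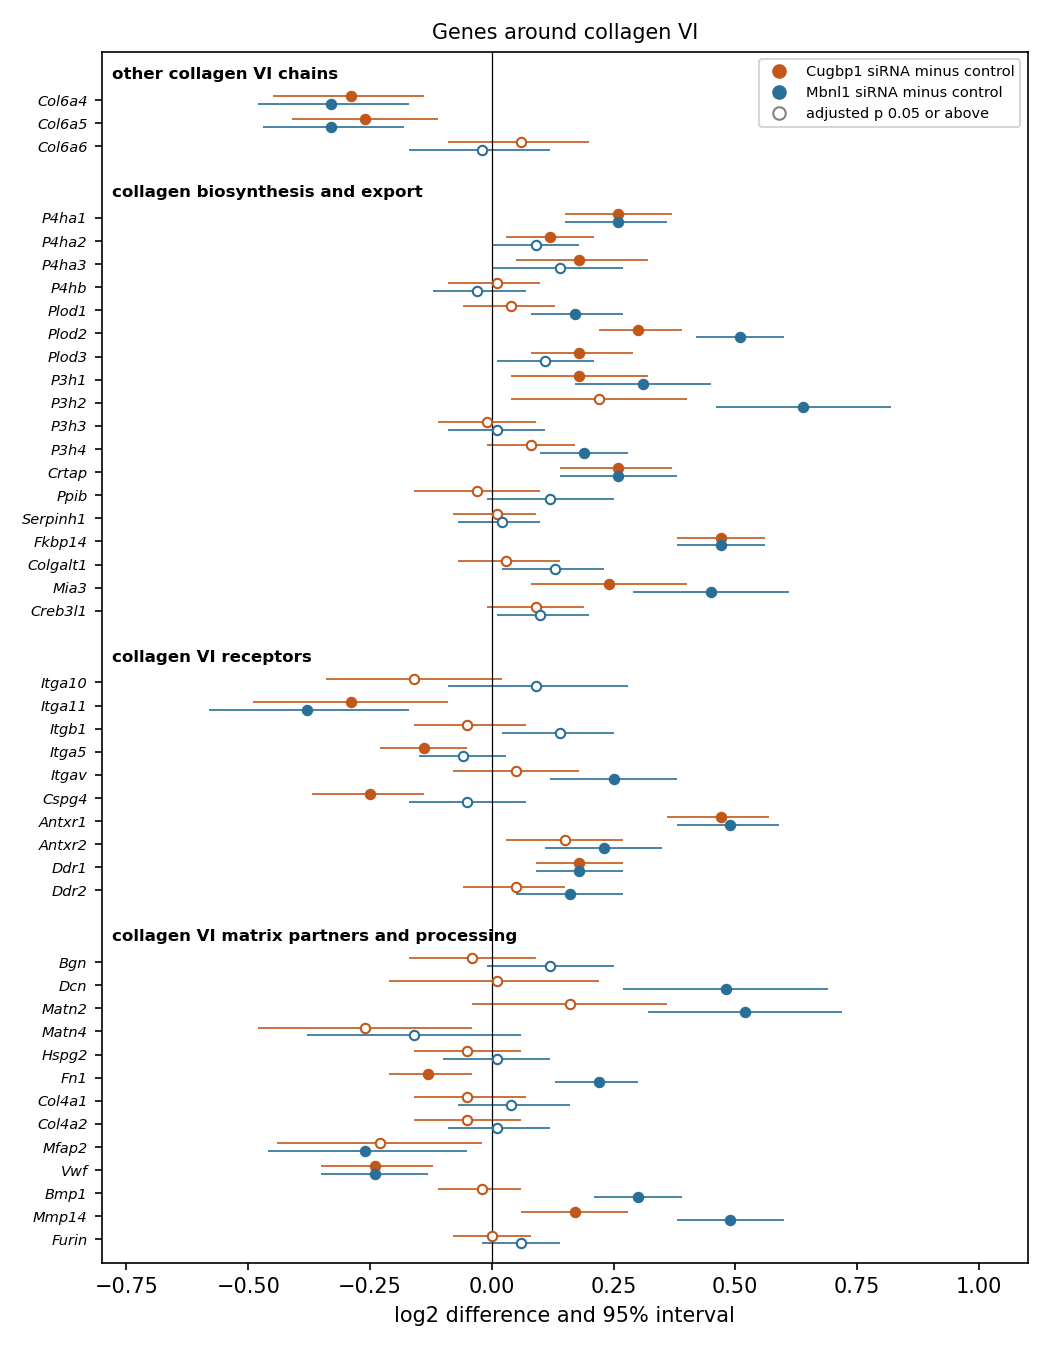
Log2 difference from control with its 95% interval for each measured gene of 4 lists around collagen VI, after Cugbp1 siRNA (orange, upper) and after Mbnl1 siRNA (blue, lower); filled dots passed limma at an adjusted p under 0.05 over all genes and open dots did not. Antxr1 and Fkbp14 lie at 0.47 to 0.49 after both siRNAs, while Dcn, Bmp1 and Fn1 are higher after Mbnl1 siRNA than after Cugbp1 siRNA.

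Among the other collagens, all 11 on the list were measured. After Cugbp1 siRNA 1 rose and 2 fell, with a median of 0.00, beside 26% and 12.7% of all genes and a median of 0.05. After Mbnl1 siRNA 6 rose and 1 fell, with a median of 0.26, beside 26.9%, 14.6% and 0.04. Col5a2 rose after both, by 0.25 (adjusted p = 0.00555) and 0.31 (adjusted p = 0.00149), and Col15a1, a basement membrane collagen, fell by 0.39 (adjusted p = 0.00107) and fell by 0.31 (adjusted p = 0.00234). The filter was passed by 50 of 63 probe sets of Col5a2 and by 19 of 51 of Col15a1. Col12a1 rose by 0.36 after Mbnl1 siRNA (adjusted p = 0.00722) and was at 0.21 after Cugbp1 siRNA (adjusted p = 0.0758). Between the siRNAs, Col8a1 was at -0.33 (adjusted p = 0.00771), Col1a2 at -0.25 (adjusted p = 0.0105) and Col18a1 at -0.18 (adjusted p = 0.044), with Col18a1 called in 1 of the 9 settings that left out 1 array. Centred on the kept probe sets, where most calls over all genes were lower, 1 rose and 5 fell after Cugbp1 siRNA. After Mbnl1 siRNA 5 rose and 4 fell.

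Collagen VI is made by fibroblast-like cells as well as by myoblasts, and markers of both differed between the groups. Of 6 fibro-adipogenic and fibroblast markers, 5 were measured, with Thy1 left out because only 2 of its 9 probe sets passed the filter. After Cugbp1 siRNA 1 rose and 2 fell, against 26% and 12.7% of all genes, and after Mbnl1 siRNA 3 rose and 2 fell, against 26.9% and 14.6%. Centred on the kept probe sets, where most calls over all genes were lower, 1 rose and 2 fell after Cugbp1 siRNA. After Mbnl1 siRNA 2 rose and 2 fell, with Ly6a no longer passing. Pdgfra rose by 0.51 (adjusted p = 0.000212) and 0.79 (adjusted p = 9.94e-06), and Cd34 was at -0.02 (adjusted p = 0.808) and rose by 0.88 (adjusted p = 1.77e-05). Pi16 fell by 0.26 (adjusted p = 0.0251) and fell by 0.40 (adjusted p = 0.00287), and its call after Cugbp1 siRNA was lost without replicate 1 or 3 of the control siRNA or of the Cugbp1 siRNA arrays. Dpp4 fell by 0.34 (adjusted p = 0.0212) and fell by 0.29 (adjusted p = 0.0412), with calls that held in 8 and 1 of the 9 settings that left out 1 array. The first was lost without Cugbp1 siRNA replicate 2, and the second was kept only without control siRNA replicate 3. Ly6a was at -0.01 (adjusted p = 0.918) and rose by 0.26 (adjusted p = 0.0229), a call lost without control siRNA replicate 2 or 3 or Mbnl1 siRNA replicate 1.

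The summed linear gene values of the 5 fibroblast markers were 4990 to 6020 after Cugbp1 siRNA, 6510 to 7090 after Mbnl1 siRNA and 5350 to 5780 on control arrays. Most of that sum was Ly6a, at 4110 to 5120 after Cugbp1 siRNA, 5310 to 5910 after Mbnl1 siRNA and 4430 to 4840 on control arrays. Its log2 gene value averaged 12.17 on control arrays, above every listed myoblast marker, of which Des was the highest at 11.88. Whether Ly6a marks fibroblast-like cells in this line was not tested. The other 4 markers summed to 879 to 911 after Cugbp1 siRNA, 1120 to 1280 after Mbnl1 siRNA and 912 to 964 on control arrays. Many of their probe sets were weak: 11 of 33 passed the filter for Pdgfra, 3 of 32 for Dpp4, 4 of 16 for Pi16 and 11 of 17 for Cd34.

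Over all genes, 26% were called higher and 12.7% lower after Cugbp1 siRNA, and 26.9% and 14.6% after Mbnl1 siRNA. The counts of the other marker lists stand beside these shares. Of the 7 myoblast markers, 3 rose after Cugbp1 siRNA, namely Myod1 by 0.30 (adjusted p = 0.0142), Cdh15 by 0.32 (adjusted p = 0.00602) and Ncam1 by 0.31 (adjusted p = 0.00124). After Mbnl1 siRNA Ncam1 rose by 0.30 (adjusted p = 0.00115) and Myf5 fell by 0.28 (adjusted p = 0.0147), a call lost without Mbnl1 siRNA replicate 2 or 3. Their sum was 9450 to 9710 after Cugbp1 siRNA, 8780 to 9920 after Mbnl1 siRNA and 8900 to 9040 on control arrays. Centred on the kept probe sets, where most calls over all genes were lower, 2 rose and 1 fell after Cugbp1 siRNA. After Mbnl1 siRNA 1 rose and 2 fell. Among 4 macrophage and leukocyte markers, Csf1r fell by 0.35 after either siRNA (adjusted p = 0.00574 and 0.00444) and Itgam fell by 0.33 (adjusted p = 0.0129) and fell by 0.24 (adjusted p = 0.0456). The second call of Itgam was kept only without control siRNA replicate 2, Cugbp1 siRNA replicate 3 or Mbnl1 siRNA replicate 3. Cd68 was at -0.05 (adjusted p = 0.539) and rose by 0.49 after Mbnl1 siRNA (adjusted p = 0.000259). The sum of these 4 was 955 to 1050 after Cugbp1 siRNA, 1140 to 1190 after Mbnl1 siRNA and 1160 to 1220 on control arrays. Most of their signals were weak: 7 of 33 probe sets passed the filter for Csf1r, 6 of 41 for Itgam and 5 of 53 for Ptprc, against 10 of 10 for Cd68. Of the 2 endothelial markers measured, Pecam1 fell after each siRNA, with calls that held in 3 and 9 of the 9 settings that left out 1 array. Only 3 of 22 probe sets of Pecam1 and 3 of 31 of Tek, the other marker, passed the filter. Of the 5 markers of differentiated muscle, Myh3 rose after Cugbp1 siRNA, with 10 of 43 probe sets past the filter. That call held in 5 of the 9 settings. Centred on the kept probe sets, where most calls over all genes were lower, the muscle markers had 0 higher and 1 lower after Cugbp1 siRNA. The Myh3 call was thus lost. Under that centring 0 macrophage and leukocyte markers rose and 3 fell after Cugbp1 siRNA. After Mbnl1 siRNA 1 rose and 3 fell. Of the endothelial markers, 0 rose and 2 fell after Cugbp1 siRNA, and 0 rose and 1 fell after Mbnl1 siRNA. Sox10, the single Schwann and neural marker measured, did not pass the test. The part of these markers in the values of the chains was not tested.

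Genes whose values over the 9 arrays were most like each chain were ranked by the root mean square difference of the centred log2 gene values. For Col6a1 they were Xrcc5 (0.032), Nr2c1, Uhrf2, Map2k4 and Bcl9, and for Col6a2 they were Rps9, Ddx42, Kdm6b, Slx4ip and Mtcp1 (0.037 to 0.040). For Col6a3 they were Atl3 (0.035), Itgav (0.040), Atxn3 (0.041), Gas5 (0.046) and Tjp1 (0.047). Itgav is thus both a receptor on the list above and the second most like gene of Col6a3, with gene values of 10.32 ± 0.11 after Cugbp1 siRNA, 10.53 ± 0.05 after Mbnl1 siRNA and 10.27 ± 0.03 on control arrays.

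The genes beside the chains on the chromosome gave mixed values. On the Col6a2 side, Ftcd fell by 0.28 after Cugbp1 siRNA (adjusted p = 0.0115) and fell by 0.39 after Mbnl1 siRNA (adjusted p = 0.00195), and Lss, an enzyme of cholesterol synthesis, rose by 0.27 (adjusted p = 0.00156) and fell by 0.13 (adjusted p = 0.0346). On the Col6a1 side, Pcbp3 was at -0.13 (adjusted p = 0.0663) and -0.02 (adjusted p = 0.745), and the folate carrier Slc19a1 was at 0.08 (adjusted p = 0.225) and fell by 0.21 (adjusted p = 0.00643). Col18a1, the next gene, was at 0.11 (adjusted p = 0.0871) and rose by 0.29 (adjusted p = 0.00126). Around Col6a3, Cops8 was at 0.09 and 0.06, Ackr3 at -0.10 and -0.12 and neither passed the test, while Mlph fell by 0.19 (adjusted p = 0.0104) and fell by 0.16 (adjusted p = 0.0193) and Rab17 was at -0.06 (adjusted p = 0.483) and fell by 0.26 (adjusted p = 0.0128). Of the genes that fell, Ftcd, Mlph and Rab17 had 5 of 16, 5 of 22 and 4 of 12 probe sets past the filter, and Lss and Slc19a1 had 25 of 25 and 14 of 17. Spatc1l, Iqca and Prlh, also among the 3 nearest genes on a side, had 0 of 9, 2 of 20 and 1 of 2 probe sets past the filter, too few to be tested.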

How the data were processed

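Total RNA of C2C12 cells was measured on 9 Affymetrix exon arrays, grouped by the siRNA and replicate number in the sample titles. The authors deposited a table that gives the intensity of 1195555 probe sets per array on a linear scale, made with RMA in Affymetrix Expression Console on genome build mm9, per the submitters' processing notes. Versions of these tools: not given in the sources used here. RMA normalises between arrays, so differences are relative to the array as a whole. Precision is set by the number of arrays, 3 per group.

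Log2 of the deposited intensities was taken, with no further normalisation. Probe sets were named from the platform annotation where it gave 1 symbol (316997; 6571 had several and 871987 were not listed), and 4213 of 22264 symbols were updated through a RefSeq table of GRCm38.p6. Probe sets were kept when their mean log2 over the arrays reached the 75th percentile, 7.0 (intensity 128). Gene values were the Tukey median polish of at least 3 kept probe sets. Departures (probe set minus gene value) were fitted for the 158713 kept probe sets of genes with at least 4. Both were fitted in limma 3.58.1 (R 4.3.3, data.table, version 1.17.8) on all 9 arrays together with 1 mean for each group, eBayes (with a trend for probe sets) and Benjamini-Hochberg adjustment over the whole table, and called at an adjusted p under 0.05. Errors after ± are the SE of the fit for differences and the SD of 3 arrays for levels. The procedure was tested on simulated data. Figures were drawn with matplotlib 3.10.9 in Python 3.11.15.

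The members, the gene lists and the tests were chosen with earlier results of these data known. Named were the chains, the siRNA targets, up to 4 probe sets per chain with the largest departures from control, every measured other collagen VI chain, up to 4 members of each list per comparison with the largest difference among those that passed, the 5 most like genes per chain and the 3 nearest protein-coding genes on each side. Genes and comparisons named beyond this rule were added after their values were seen. They include Serpinh1, P4hb and the marker genes. They also include named genes in comparisons where they did not pass or were not among the 4 largest. Mia3, Antxr2, Itgav, P3h2, Cspg4, Col12a1, P4ha1, Crtap, Ddr1, Vwf and Mmp14 are among these. Alternatives were the filter, the scaling, the gene summary, the gene reference of a probe set, a pseudocount of 16, diffSplice, a replicate block and leaving out each array.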

Additional observations from a re-analysis of the deposited data

How the results depend on the processing

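Differences of the chains between the siRNAs moved by less than the spread within groups under every alternative run. Against control, repeated quantile normalisation gave 0.31 for Col6a1 after Mbnl1 siRNA, and the mean of the probe sets as gene value gave 0.35 for Col6a1 and 0.36 for Col6a2 after Cugbp1 siRNA and 0.32 for Col6a1 after Mbnl1 siRNA. Centring on the kept probe sets, added after the data were seen, shifted all genes and gave 0.27, 0.17 and -0.05 for Col6a1, Col6a2 and Col6a3 after Cugbp1 siRNA and 0.23, 0.15 and 0.18 after Mbnl1 siRNA. Departures of the Col6a3 pair between the siRNAs stayed at 1.2 to 1.27 in these alternatives. Centring could hardly move them, since it shifts a probe set and its gene value nearly alike. A replicate block could not move them, since every group holds every replicate number. Their calls there held in 8 of 9 alternatives for 5201909 and 7 of 9 for 5243881, and both were lost without a filter, the second also with a filter at the median. Counts over all genes moved more: without a filter 671 probe sets were called after Cugbp1 siRNA and 2689 after Mbnl1 siRNA (5955 and 11072 with it) and 639 genes between the siRNAs (1181 with it), while limma called 0 of the probe sets between the siRNAs (18889 at an unadjusted p under 0.05, and 44 called with the filter), where diffSplice called 554 of the filtered ones. A filter at the median gave 3306 after Cugbp1 siRNA and 15 between the siRNAs. diffSplice called 11709 and 17155 against control. The cause of these shifts was not tested.

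The replicate numbers did not pair the samples: same-numbered arrays correlated in their deviations at -0.10 to 0.12, and 8 of 18 array and group pairs were best with their own number. With a replicate block, limma called 20 probe sets between the siRNAs (44 without it). The block left the differences of the chains as they were, which it must when every group holds every replicate number.

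Leaving out 1 array at a time gave 3444 to 5319 genes and 1614 to 6052 probe sets called after Cugbp1 siRNA, 3774 to 5759 and 3290 to 12240 after Mbnl1 siRNA, and 628 to 1157 and 11 to 34 between the siRNAs. The fewest were called without Cugbp1 siRNA replicate 3 (1614), Mbnl1 siRNA replicate 3 (3290), and Cugbp1 siRNA or Mbnl1 siRNA replicate 2 (11). Col6a1 gave 0.37 to 0.40 and 0.33 to 0.39 against control, Col6a2 0.26 to 0.33 and 0.22 to 0.31, and Col6a3 -0.01 to 0.15 and 0.27 to 0.35. Between the siRNAs they gave 0.00 to 0.06, -0.01 to 0.06 and -0.31 to -0.15, and the pair of Col6a3 probe sets 1.08 to 1.33. Leaving out a control array could not change these values between the siRNAs.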
